A study of Drosophila melanogaster with 11 samples.

Results

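Amalgam (Ama) and Neurotactin (Nrt) encode a ligand and its receptor, and their transcripts were followed in Drop-seq libraries of the Drosophila wing imaginal disc. Drop-seq captures single cells with barcoded beads and counts each captured transcript once by its unique molecular identifier (UMI). Both genes were taken by name, were listed in all 11 matrices, and are 2 of the 16503 genes listed in any matrix. All discs came from wandering larvae of the third instar, with the pouch cut away so that notum and hinge remained. All animals carried P{1151-GAL4}, a driver active in the myoblasts. The 4 libraries of 1151-GAL4 carried the driver alone, the 4 libraries of 1151>mCherry-RNAi also carried the control hairpin P{VALIUM20-mCherry}attP2, and the 3 libraries labelled 1151>Ama-RNAi carried P{TRiP.Ama_HMS00297}attP2 against Ama. The first pair of groups made up the 8 wild-type libraries. Nothing in the labels says that libraries of a group came from separate crosses, so the spread between libraries may be technical. Between groups, the p-values measure that spread. Where cells of the same libraries were compared, they measure how far the difference varied over libraries. In tests on summed counts the spread is estimated partly from other genes. A small p-value there does not mean that every library agreed.

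Ama is a secreted protein with immunoglobulin domains that sits at cell surfaces and binds Nrt. Nrt is a transmembrane protein whose extracellular part resembles cholinesterases without acting as an enzyme. Binding of Ama to Nrt holds cells together, and in the embryonic nervous system of the fly both genes work with the kinase Abl and its partners in axon guidance. The myoblasts studied here lie on the notum and give rise to the direct flight muscles (DFM) and the indirect flight muscles (IFM).

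In the BDGP6 assembly, Ama (FBgn0000071) spans 3R:6762593-6765261 on the plus strand, within the Antennapedia complex, with 3 annotated transcripts that share their last exon, 3R:6763833-6765261. An annotated antisense RNA, lncRNA:CR45593, overlaps 886 bases at the start of the gene, and lncRNA:CR44930 begins 223 bases beyond its end on the same strand. Nrt (FBgn0004108) spans 3L:16766072-16777465 on the plus strand, also with 3 annotated transcripts, and its last 935 bases overlap mus302 on the opposite strand. The sources do not say whether counting used strand, so reads from Nrt and mus302 cannot be told apart where they overlap. The neighbouring long non-coding RNAs held 5 UMIs (lncRNA:CR45593) and 1 UMI (lncRNA:CR44930) in all wild-type myoblasts, and mus302, listed as CG13025, held 54.

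Barcodes with 200 to 2500 detected genes were kept, 26085 in all, of which 38 carried a sequence seen in more than 1 library. Libraries held between 1335977 and 10548893 UMIs before this filter. A barcode counted as a myoblast when Him, zfh1, twi and CG9650 together reached 2 UMIs and more than 2 times the UMIs of Fas3, grh, ImpE1 and ImpE2, and as epithelium in the reverse case. Tracheal cells had at least 2 UMIs of trh and Cht5. In wild type this gave 5134 myoblasts, 10092 epithelial cells, 114 tracheal cells and 6701 barcodes of no class. Of markers outside the rule, Mef2, BM-40-SPARC, Ef1alpha100E, trol, babos and beat-IIb went with these names in wild type. They summed to 3116 UMIs per 1000000 UMIs of the class (CPM) in myoblasts and to 269.7 in epithelium. The study named most of these genes as high in myoblast clusters of the same samples, so they are no independent evidence for the names. The summed hemocyte markers stood at 8.24 CPM and those of the fat body at 6.86 CPM in the same myoblasts.

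Ama and Nrt were both higher in myoblasts than in the disc epithelium. Nrt was 5.52-fold higher and Ama 2.11-fold higher in wild type, and the epithelium kept a measurable level of each. Ama in wild-type myoblasts ran from 36.3 CPM through a median of 153 to 225, with a mean of 150 ± 53.6 (SD, n = 8). In the epithelium of the same libraries it ran from 42.3 through 77.2 to 116 CPM, with a mean of 80.1 ± 26.2 (SD, n = 8). The ranges overlapped through a single library, 1151>mCherry-RNAi replicate 5, which held the lowest Ama level in both classes, and Ama was higher in myoblasts in the other 7.

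Nrt in wild-type myoblasts ran from 173 CPM through a median of 275 to 383, with a mean of 274 ± 66.7 (SD, n = 8). In epithelium it ran from 34.3 through 53.6 to 65.2 CPM, with a mean of 52.6 ± 9.59 (SD, n = 8). These ranges did not overlap. By edgeR's quasi-likelihood test with the library as a block, Ama differed by a log2 fold change of 1.08 ± 0.11 (SE, adjusted p = 1.2e-10) and Nrt by 2.46 ± 0.11 (SE, adjusted p = 8.8e-21). Genes called higher in myoblasts made up 21.5% of all those tested, and genes called lower 25.5%, so being called higher does not set either gene apart. Both calls held in all 13 alternatives run.

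**Figure D1:**
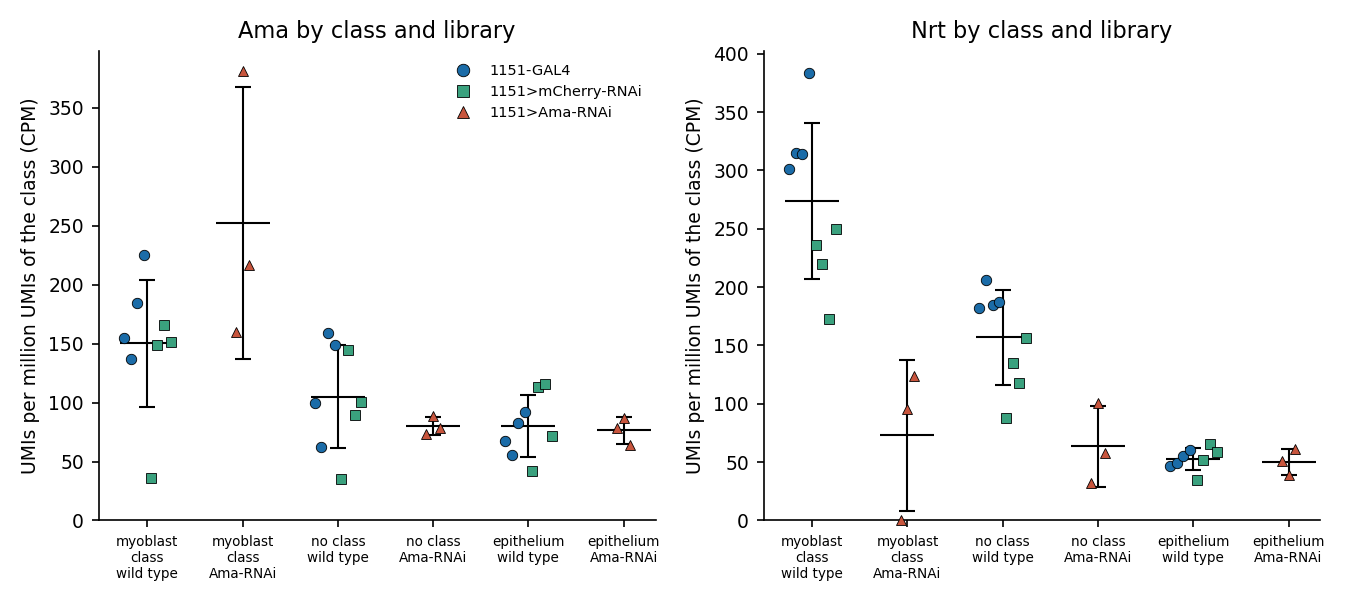
Ama (left) and Nrt (right) in UMIs per 1000000 UMIs of the class (CPM, vertical axis) for each library, in the myoblast class, in barcodes of no class and in epithelium, for wild type (circles 1151-GAL4, squares 1151>mCherry-RNAi) and libraries labelled 1151>Ama-RNAi (triangles). Bars give the mean ± SD, cut at 0. Wild-type Nrt in myoblasts (173 to 383 CPM) lies above every epithelial value, while Ama overlaps through 1 library at 36.3 CPM.

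Few single cells showed either transcript. Of 5134 wild-type myoblasts, 666 (12.97%, 95% exact interval 12.1 to 13.9) held an Ama UMI and 1157 (22.5%, 21.4 to 23.7) held a Nrt UMI, at a median of 822 UMIs per cell. In epithelium the shares were 9.03% for Ama (8.47 to 9.60) and 7.01% for Nrt (6.52 to 7.52), at a median of 886 UMIs. These intervals cover counting error only. With every cell thinned to 400 UMIs, the mean share per library was 5.08% in myoblasts against 2.91% in epithelium for Ama, and 10.5% against 1.86% for Nrt. The thinning left out 529 wild-type myoblasts that were shallower. Single cells reached up to 7 UMIs of either gene in myoblasts, and 61 cells held 3 or more Ama UMIs against 113 for Nrt.

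Droplets also pick up free RNA, and the part of free RNA in the epithelial levels was not tested. Of 7 genes of myoblasts outside the class rule, the epithelial level in wild type ran from 1.51% of the myoblast level for the Notch target E(spl)m6-BFM through a median of 6.18% to 21.5% for the muscle transcription factor gene Mef2. Nrt stood within that range at 19.2% and Ama above it at 53.3%. A high epithelial level was not particular to Ama. Of other genes that the study lists for DFM myoblasts, Ten-a stood at 648 CPM in epithelium and 217 in myoblasts of 1151-GAL4. There wb stood at 47.2 and 144 CPM. Among barcodes with fewer than 200 genes, Ama stood between 24.8 and 182 CPM per library and Nrt between 46.2 and 256 CPM. The number of such barcodes ran from 93 to 768 in 1151-GAL4, which held the highest value of each gene, and from 4928 to 12280 in 1151>mCherry-RNAi.

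Tracheal cells were too few for a firm level. In wild type, 36 Ama UMIs in 114 tracheal barcodes gave 64.9 CPM (95% exact Poisson interval 45.5 to 89.9), and 34 Nrt UMIs gave 61.3 CPM (42.5 to 85.7). Only 1151-GAL4 replicates 3 and 4 had at least 10 such cells, 81 together. Against epithelium, Ama differed by -0.28 ± 0.31 on the log2 scale (95% interval -0.89 to 0.34) and Nrt by 0.17 ± 0.36 (-0.53 to 0.87), and neither was called by edgeR's quasi-likelihood test (adjusted p = 0.88 and 0.94, with 3.40% of all genes called). Against myoblasts both fell, Ama by 1.59 ± 0.26 (adjusted p = 3.4e-06) and Nrt by 2.49 ± 0.24 on the log2 scale (adjusted p = 6.8e-12), where 8.48% of all genes were called lower. The tracheal barcodes had medians of 3766 and 4010 UMIs in these libraries against 1048 and 1000 in epithelium, and 103 of all 125 also met the epithelium rule. Their part in these values was not tested.

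The order of levels was therefore myoblasts above epithelium for both genes, with tracheal cells not called different from epithelium. The other adhesion genes were mixed. Of 20 immunoglobulin adhesion genes, 15 could be tested, and 5 were higher and 7 lower in myoblasts, with a median log2 difference of -0.25 against -0.02 over all genes tested, of which 21.5% were higher and 25.5% lower. The 5 were Ama itself, the homophilic adhesion protein Fas2 (1.82 ± 0.05), the guidance receptor Dscam1 (1.25 ± 0.14), and rst (0.94 ± 0.11) and hbs (0.76 ± 0.10), which act in myoblast recognition and fusion. Among the 7 lower were the septate junction proteins Lac (-3.14 ± 0.13) and Nrg (-1.22 ± 0.07), and ed (-2.06 ± 0.07), an adhesion protein of epithelial junctions. The levels behind them differed as widely, since Fas2 stood at 1975 CPM and Lac at 19.0 CPM in myoblasts.

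Of 8 cholinesterase-like adhesion genes, the family of Nrt, 2 could be tested and they moved in opposite directions. Nrt was higher and Gliotactin (Gli), a protein of tricellular junctions, was lower in myoblasts by 3.32 ± 0.23 on the log2 scale. Of 9 genes of the Abl pathway linked to Ama and Nrt, all were tested, and 4 were higher and 1 lower, with a median of 0.29 against -0.02 over all genes and the same shares of 21.5% and 25.5% called. The kinase Abl itself differed by 0.76 ± 0.09, the profilin chic by 0.46 ± 0.05, fax, a gene found through its interaction with Abl, by 0.41 ± 0.03, and the GTPase Rac1 by 0.37 ± 0.09. The Abl target ena differed by -0.28 ± 0.08. Of 9 neighbours of Ama in the Antennapedia complex, only Antp passed the filter on low counts, and it was not called.

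Of 8 leucine-rich repeat and teneurin genes, 3 were higher and 3 lower, with a median of -0.04, beside 21.5% and 25.5% over all genes. Connectin (Con), a homophilic adhesion protein of muscles, was higher by 3.66 ± 0.16, and Ten-a, a teneurin, differed by -1.61 ± 0.08. All these differences were called by edgeR's quasi-likelihood test at an adjusted p below 0.05.

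Within the myoblasts, Ama was far from even. It was 4.81-fold higher in cells with transcripts of the DFM genes than in cells with vestigial (vg), the gene that marks IFM myoblasts, and Nrt was 1.54-fold higher. A DFM-type cell had at least 2 UMIs of Argk, kirre, lms, Ten-a, Alk, mid, sty and wb together and no vg UMI, and a vg-positive cell had at least 1 vg UMI and none of these 8 genes. The study chose these genes on the same samples, and listed Ama and Nrt with them as DFM markers. The difference between these cells is therefore no independent evidence of its direction. Neither Ama nor Nrt was used to divide the cells here. This gave 978 DFM-type and 955 vg-positive cells in wild type.

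Ama in DFM-type cells stood at 346, 505, 422 and 465 CPM in 1151-GAL4 replicates 1 to 4. It stood at 88.8, 301, 315 and 266 CPM in 1151>mCherry-RNAi replicates 5 to 8, where replicate 5 was again the lowest. In vg-positive cells that also held E(spl) UMIs, Ama ran from 0 through a median of 79.2 to 441 CPM. The value of 441 came from 5 UMIs in 18 cells of 1151>mCherry-RNAi replicate 7. In the remaining myoblasts, which met neither rule, Ama ran from 31.0 to 176 CPM with a mean of 114 (n = 8). Ama was higher in DFM-type than in vg-positive cells in all 8 libraries.

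By edgeR's quasi-likelihood test with the library as a block, Ama differed by 2.27 ± 0.18 on the log2 scale (adjusted p = 3.0e-32). Of the 604 genes tested, 7.12% were called higher, genes of the rule included. The IFM genes of the study outside the rule differed by -0.42 ± 0.08 (zfh1), -0.38 ± 0.11 (nop5) and -0.99 ± 0.13 (nkd). Each was called lower. The other IFM gene, vg, was part of the rule. The study chose this list on the same samples too, so it is no independent evidence of the direction. The epithelial junction gene ed was called higher (0.78 ± 0.15). The difference ran from 2.10 to 2.28 over the 11 alternatives that gave a value. The gene did not pass the filter on low counts under stricter class limits or without 1151>mCherry-RNAi replicate 7.

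Nrt was less uneven. In DFM-type cells it ran from 133 through a median of 380 to 577 CPM, with a mean of 366 ± 162 (SD, n = 8). In vg-positive cells with E(spl) UMIs it ran from 223 through 294 to 410 CPM, inside that range. The difference of 0.62 ± 0.14 on the log2 scale was called by edgeR's quasi-likelihood test (adjusted p = 9.8e-05) and showed in 6 of 8 libraries. The call was lost in DESeq2 (0.52, adjusted p = 0.20), without the library block (0.53, adjusted p = 0.86) and without 1151-GAL4 replicate 4 (0.52, adjusted p = 0.079).

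**Figure D2:**
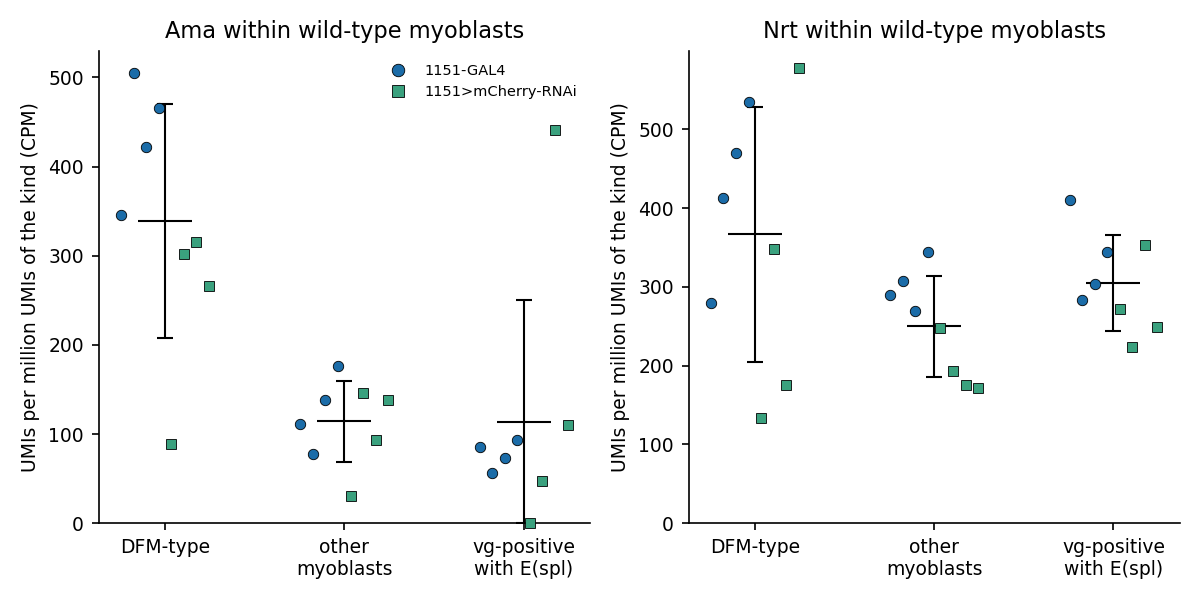
Ama (left) and Nrt (right) in CPM (vertical axis) in 3 kinds of wild-type myoblasts, 1 point per library (circles 1151-GAL4, squares 1151>mCherry-RNAi), with the mean ± SD cut at 0. Ama in DFM-type cells has a mean of 339 CPM against 114 in the other kinds, and Nrt overlaps between all 3 kinds.

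Only 102 vg-positive cells lacked UMIs of the 4 E(spl) genes used (E(spl)mbeta-HLH, E(spl)m6-BFM, E(spl)m3-HLH and E(spl)m7-HLH), which are targets of Notch signalling. They held 7 Ama UMIs (92.4 CPM) and 5 Nrt UMIs (66.0 CPM), against 83.9 and 317 CPM in the 853 cells with E(spl) UMIs. Neither gene passed the filter on low counts in the test of this difference, which 5 libraries entered. Without the filter, Nrt was higher in cells with E(spl) UMIs by 2.72 ± 0.67 on the log2 scale (adjusted p = 0.025, edgeR's quasi-likelihood test) and Ama by 0.82 ± 0.75 (adjusted p = 0.93), with a median over all genes of 0.67 and 0.232% of genes called higher. The side without E(spl) UMIs held 4 Nrt UMIs in the 5 libraries tested. The remaining Nrt UMI lay in 2 cells of 1151>mCherry-RNAi replicate 5, at 940 CPM the highest library level, which did not enter the test.

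The level of Nrt in myoblasts was lower in 1 wild-type line than in the other, but the main test did not call the difference. In myoblasts, 1151-GAL4 held 301, 315, 314 and 383 CPM of Nrt in replicates 1 to 4. In 1151>mCherry-RNAi, replicates 5 to 8 held 236, 220, 173 and 249 CPM. The lines did not overlap. The difference was -0.62 ± 0.20 on the log2 scale and just missed the threshold (edgeR's quasi-likelihood test, adjusted p = 0.052), while 12.5% of all genes were called between the lines in myoblasts. It passed under the study's stress filters (-0.64, adjusted p = 0.048), under stricter class limits (-0.68, adjusted p = 0.035), without the filter on low counts (-0.81, adjusted p = 0.041) and without 1151>mCherry-RNAi replicate 5 (-0.70, adjusted p = 0.030). It was not called in DESeq2 or with any other library left out.

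For Ama the lines differed by -0.51 ± 0.28 in myoblasts (95% interval -1.06 to 0.04, adjusted p = 0.25). In epithelium the differences were 0.23 ± 0.24 for Ama (adjusted p = 0.58) and 0.06 ± 0.21 for Nrt (adjusted p = 0.88), with 10.4% of genes called by edgeR's quasi-likelihood test. The lines also differed in depth, with medians of 703 to 825 UMIs per kept barcode in 1151-GAL4 and of 503 to 653 in 1151>mCherry-RNAi. Line and depth cannot be told apart.

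The libraries labelled 1151>Ama-RNAi held few barcodes of the myoblast class, 6 of 1554, 14 of 856 and 33 of 1634 kept barcodes in replicates 1, 4 and 5. The mean share was 1.35% against 21.7% in wild type, where libraries ran from 10.9% through a median of 23.6% to the highest, with 1948 of 6956. The difference was -20.4 percentage points (two-sided exact permutation test over 3 and 8 libraries, p = 0.012, the smallest this design allows), and the groups did not overlap. The share depends on the rule markers. Him stood at 971 CPM in this class in replicates 4 and 5, against 3305 CPM in wild type. Loss of cells and loss of these transcripts cannot be told apart by the share. The study, which assigned cells by clustering, counted more myoblasts in these libraries, but also far fewer than in wild type. Its staining of such discs for the proteins Ct and Zfh1 also showed far fewer myoblasts than in the control.

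The 53 barcodes left in the class went against its name in part. Only 17 held a Him UMI. The other 36 held zfh1 at 2488 CPM, ct at 1137 CPM and Antp at 686 CPM, but vg at 85.8, twi at 64.4, CG9650 at 42.9 and Ef1alpha100E at 21.5 CPM. The 602 Him-negative cells of the wild-type class held vg at 763, twi at 344, CG9650 at 972 and Ef1alpha100E at 619.9 CPM. Summed over the 6 myoblast markers outside the rule, the level was 901 CPM in the 36 barcodes, 2957 CPM in the wild-type Him-negative cells and 3163 CPM in the 17 Him-positive barcodes. The hemocyte markers summed to 107 CPM in the 36 barcodes, with 3 of 6 at 0, against 7.82 CPM in the wild-type Him-negative cells. In the same 2 kinds, tracheal markers summed to 107 and 31.3 CPM, and those of neurons and glia to 107 and 111 CPM. The 4 epithelial markers outside the rule summed to 193 and 110 CPM. Among these lists of other cell kinds, the gap was widest for the hemocyte markers. The sums rest on few UMIs in the 36 barcodes, and no identity is drawn from them. The part of these markers in the values of Ama and Nrt was not tested, and the 53 are called barcodes of the myoblast class.

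Ama was not called lower in that class under 1151>Ama-RNAi. The libraries labelled so held 160 CPM (1 UMI), 381 CPM (8 UMIs) and 217 CPM (7 UMIs), against 36.3 to 225 CPM in wild type. The ranges overlapped. In replicates 4 and 5, with 47 barcodes, the difference was 0.46 ± 0.52 on the log2 scale (95% interval -0.55 to 1.47, adjusted p = 0.80, edgeR's quasi-likelihood test) at a median over all genes of -0.34. In this fit 0.438% of genes were called. For myoblasts with the Ama hairpin, assigned by clustering, the study reported lost expression of Ama, Nrt, Argk, Alk and wb. Those cells were chosen by another method than the barcodes of this class, and how far the sets overlap was not tested. The values of Ama and Nrt given here therefore do not decide on that loss.

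All 16 Ama UMIs lay in the 36 Him-negative barcodes, at 343 CPM (95% exact Poisson interval 196 to 557), against 139 CPM (108 to 175) in Him-negative cells of wild type. The 17 Him-positive barcodes held 12962 UMIs and no Ama UMI. A count of 0 there allows up to 3 counts or 231 CPM, above the 194 CPM of Him-positive wild-type cells, so a loss of Ama in them was not detectable at this depth. The position in the transcript that the hairpin targets is not given in the sources used here, and Drop-seq reads the 3′ end. The targeted gene therefore gave no check of the label.

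Among wild-type myoblasts, Him-negative cells had Ama at -0.36 ± 0.20 and Nrt at -0.27 ± 0.15 on the log2 scale relative to Him-positive cells, and neither was called by edgeR's quasi-likelihood test (adjusted p = 0.40 for both, with 3.60% of genes called).

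Nrt in the same barcodes stood at 0, 95.3 and 124 CPM in replicates 1, 4 and 5, all below the lowest wild-type library at 173 CPM. These levels rest on 6 UMIs in all. The difference of -1.72 ± 0.54 on the log2 scale (95% interval -2.78 to -0.66) was not called (adjusted p = 0.28, edgeR's quasi-likelihood test). It was called against the 4 libraries of 1151-GAL4 alone (-2.02, adjusted p = 0.016). No other alternative of this comparison called it.

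In this class, 9 genes were called higher under 1151>Ama-RNAi and 5 lower, and those given here were chosen after their values were seen. The count was 2 without 1151>Ama-RNAi replicate 4 and 7 without replicate 5, and against 1151-GAL4 alone it was 143, 29 higher and 114 lower. Among the 5 were vg (-2.06 ± 0.45), Ef1alpha100E (-2.18 ± 0.46), the Notch ligand Delta (Dl, -2.71 ± 0.53) and trol, the fly perlecan (-1.98 ± 0.36). Among the 9 were the homeobox gene Lim1 (5.59 ± 0.87), Ninjurin A (NijA, 6.06 ± 0.69) and the sterol-binding protein gene Npc2a (4.90 ± 0.62). All were called by edgeR's quasi-likelihood test, and the part that the 36 Him-negative barcodes have in them was not tested. None of the 10 DFM genes of the study was called, with a median of -1.53 over the 9 tested against -0.34 over all genes.

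**Figure D3:**
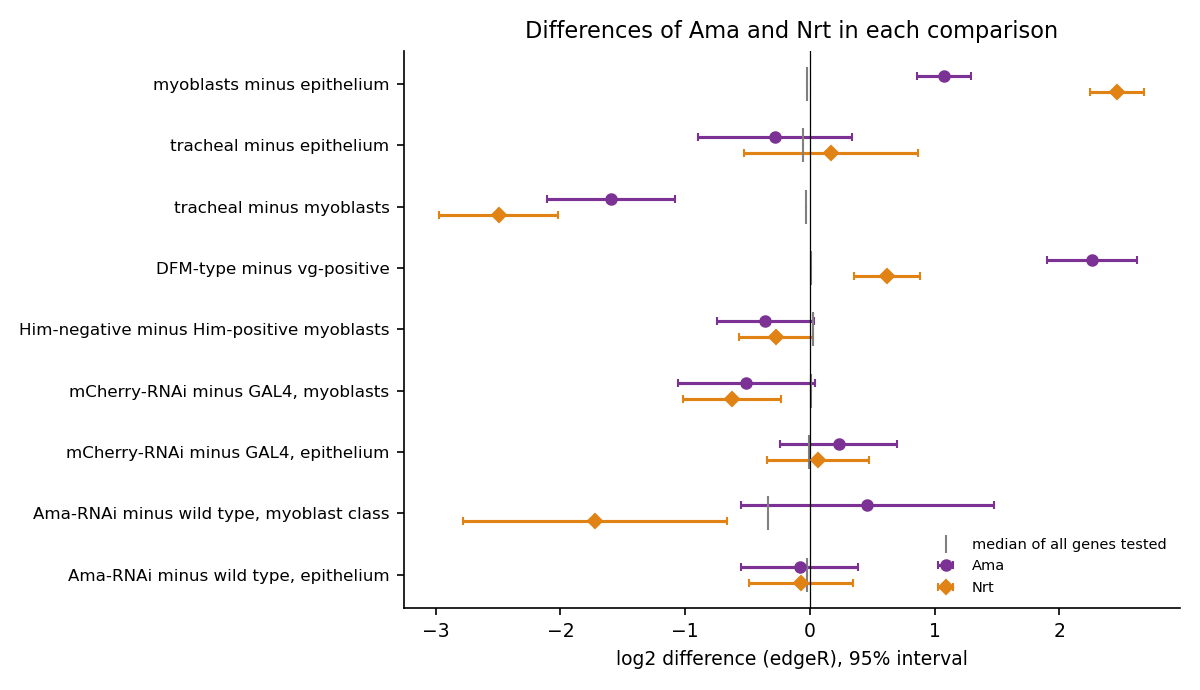
Log2 differences of Ama (circles) and Nrt (diamonds) from edgeR's quasi-likelihood fits in 9 comparisons, with 95% intervals on the horizontal axis and the median of all genes tested as a grey tick. Both genes lie to the right in myoblasts against epithelium (1.08 and 2.46), and in the myoblast class under 1151>Ama-RNAi the interval of Ama (-0.55 to 1.47) spans 0.

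In the epithelium, where the driver is not stated to act, neither gene was called under 1151>Ama-RNAi. Ama stood at 78.6, 86.8 and 64.4 CPM in replicates 1, 4 and 5, within the wild-type range of 42.3 to 116. Nrt stood at 50.9, 38.6 and 60.9 CPM, within the range of 34.3 to 65.2. The differences were -0.08 ± 0.24 (95% interval -0.55 to 0.39) for Ama and -0.07 ± 0.21 (-0.49 to 0.34) for Nrt on the log2 scale, with an adjusted p of 0.999 for both by edgeR's quasi-likelihood test.

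In the epithelium 4 of 5824 genes, or 0.0687%, were called. The count was 93 against 1151-GAL4 alone, 75 higher and 18 lower. It was 2 without any 1 of the libraries labelled 1151>Ama-RNAi, without 1151-GAL4 replicate 3 or without 1151>mCherry-RNAi replicate 5. The 4 are named after their values were seen and were Him (-5.26 ± 0.68), a gene of the class rule, E(spl)m6-BFM (-3.41 ± 0.61), Obp99a (1.98 ± 0.34) and the cytochrome P450 gene Cyp4p2 (6.15 ± 0.49).

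The mean epithelial level under 1151>Ama-RNAi was 0.957 of that in wild type for Ama and 0.953 for Nrt. For the 7 genes of myoblasts outside the class rule this ratio ran from 0.101 for E(spl)m6-BFM through a median of 0.661 to 0.822 for trol. Mef2 stood at 37.0 ± 12.3 CPM (SD, n = 8) in wild type and at 24.4 ± 8.67 CPM (SD, n = 3) under 1151>Ama-RNAi, and E(spl)m6-BFM at 23.3 ± 12.8 and 2.36 ± 0.353 CPM. Of the 7, only E(spl)m6-BFM was called, and the difference between these genes was not tested.

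**Figure D4:**
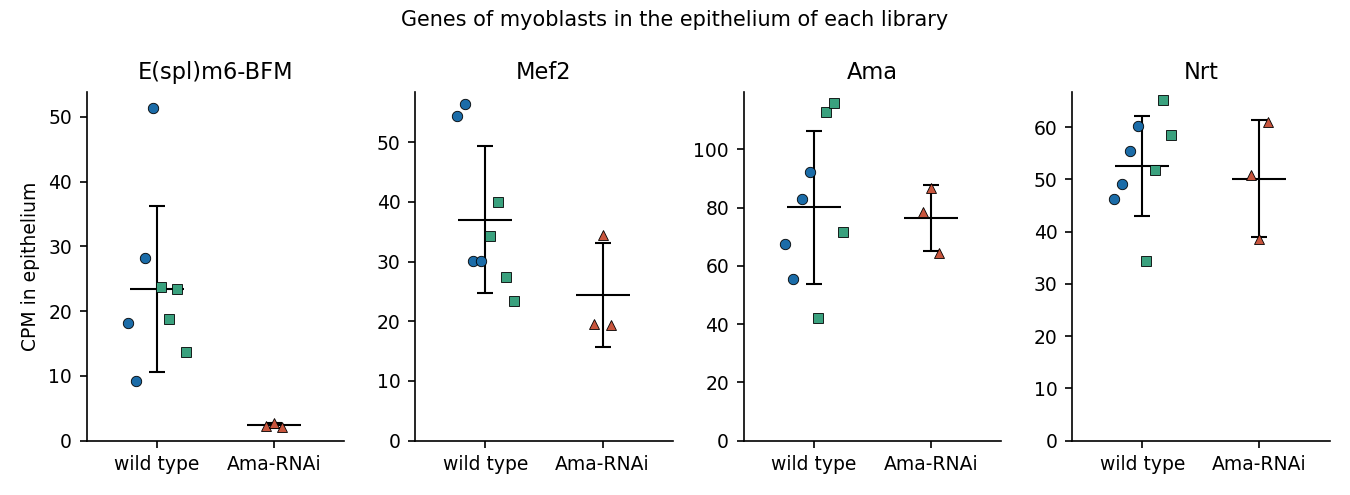
Level in CPM (vertical axis, each panel on its own scale from 0) of E(spl)m6-BFM and Mef2, the markers outside the class rule with the lowest and highest epithelial share of their myoblast level, and of Ama and Nrt, in epithelial cells of each library. Wild type is shown by circles (1151-GAL4) and squares (1151>mCherry-RNAi) and 1151>Ama-RNAi by triangles, with the mean ± SD cut at 0. E(spl)m6-BFM goes from a mean of 23.3 to 2.36 CPM and Mef2 from 37.0 to 24.4, whereas Ama goes from 80.1 to 76.6 and Nrt from 52.6 to 50.1.

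Whether the change under 1151>Ama-RNAi differed between the classes was tested as an interaction with the library as a block. For Ama the change in the myoblast class exceeded that in epithelium by 0.26 ± 0.46 on the log2 scale (95% interval -0.64 to 1.16, adjusted p = 0.81, edgeR's quasi-likelihood test). For Nrt the difference of changes was -1.94 ± 0.56 (-3.05 to -0.84) and was called (adjusted p = 0.030). In this fit the median over all genes was -0.75 and 2.84% of genes were called lower, so relative to the median gene the difference for Nrt was -1.20. The call was lost in DESeq2 (-1.50, adjusted p = 0.35), without the filter on low counts (-1.82, adjusted p = 0.17), under stricter class limits (-2.02, adjusted p = 0.31), against 1151>mCherry-RNAi alone (-1.26, adjusted p = 0.48) and in 6 of the 10 fits that left out 1 library, namely 1151-GAL4 replicate 2, 3 or 4, 1151>mCherry-RNAi replicate 6 and 1151>Ama-RNAi replicate 4 or 5 (-1.75 to -2.03).

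A ligand and its receptor need not be made by the same cell, and the detection of both in 1 myoblast was compared with what depth gives. In wild type, 202 myoblasts held UMIs of both genes, against 179 expected when cells are matched within quartiles of UMIs per cell. The log2 ratio of observed to expected cells was above 0 in 5 of 8 libraries, with a mean of 0.12 ± 0.28 (SD, n = 8), and did not differ from 0 (two-sided exact sign-flip permutation test over libraries, p = 0.25). Without matching for depth the mean was 0.24 (exact sign-flip p = 0.070). With cells thinned to 400 UMIs the mean was -0.59 ± 1.01 (SD, exact sign-flip p = 0.17), with 34 cells seen against 36.1 expected. Under stricter class limits it was -0.15 ± 0.62 (SD, exact sign-flip p = 0.67). There 169 cells were seen against 157 expected, and 5 of 8 libraries were above 0. Each mean gives small libraries the same weight as large ones. At this depth, detection of Ama and of Nrt in a myoblast was not measurably linked. The study reported an Ama reporter and Nrt protein together in DFM cells by staining. The count here covers RNA over all myoblasts and does not address that result.

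The correlation of Ama and Nrt across wild-type myoblasts was 0.02 (mean Pearson r over 8 libraries, -0.06 to 0.09), which placed Nrt at rank 448 of 1689 genes. In epithelium it was also 0.02 (-0.04 to 0.10), at rank 1261 of 2503. Across 6 cell classes, where points share libraries, Ama and Nrt had r = 0.72 on log2(CPM + 10). The genes most like Ama over these classes were chrb (0.99), CG34380 (0.98), Pak3 (0.97), Bub1 (0.97) and nemy (0.97), out of 5357 compared. Those most like Nrt were viaf (0.995), CG43066 (0.99), TFAM (0.99), how (0.99), which encodes an RNA-binding protein of muscle and tendon, and E(spl)mgamma-HLH (0.99). These are descriptions over 6 points.

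Correlations with Ama within wild-type myoblasts were weak throughout, as sparse counts make them, and are given as a description over cells that share library and depth. The highest mean r over the 8 libraries was that of Argk, the arginine kinase gene, at 0.15 ± 0.08 (SD, -0.0049 to 0.26, positive in 7 of 8 libraries), and it was 0.15 with UMIs per cell held fixed. The next were beat-IIIc (0.14, positive in all 8 libraries), the muscle actin gene Act57B (0.11), Ten-a (0.11), chrb (0.10), the teneurin Ten-m (0.10), CG15628 (0.09), the cell death gene hid (0.09), the receptor tyrosine kinase gene Alk (0.09) and CG6770 (0.09). The lowest were nkd (-0.08), rn (-0.07), beat-IIb (-0.07), vg (-0.07) and Cam (-0.06). Argk, Ten-a and Alk belong to the DFM genes used above, and vg and nkd to the IFM genes of the study.

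For Nrt the highest were alphaTub84B (0.09), faf (0.08), Glycogenin (0.08), CG2182 (0.08), kirre (0.08), the netrin receptor gene fra (0.07), fs(1)h (0.07), the N-cadherin gene CadN (0.07), Gug (0.07) and CG42671 (0.07). The lowest were RpL28 (-0.06), RpL14 (-0.05), RpL17 (-0.05), CG6020 (-0.04) and RpL36A (-0.04), of which 4 encode ribosomal proteins.

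Wild-type myoblasts were then split by Ama itself, 662 cells with at least 1 UMI against 4328 with none in the 7 libraries with at least 10 of each, and all other genes were compared. Ama was used for the split and is no result of it. Of 2053 other genes, 30 were higher and 23 lower, 2.58% in all by edgeR's quasi-likelihood test with the library as a block. Cells with an Ama UMI were deeper, with a median of 1069 UMIs against 789. With cells thinned to 400 UMIs before the split 22 genes were called, of which 18 were among the 53, and 47 of the 48 that could be fitted kept their direction. DESeq2 called 22, and the fit without the block 4. Without 1151-GAL4 replicate 4 the count was 23, and without replicate 3 it was 28.

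The genes that rose in every library used were led by the T-box factor gene mid, at 151 CPM with and 43.5 CPM without an Ama UMI (1.74 ± 0.23, adjusted p = 2.2e-08, edgeR's quasi-likelihood test). They also held Ten-a (0.89 ± 0.12), pigs (0.96 ± 0.18), drl, a receptor of Wnt5 (0.81 ± 0.14), yip2 (0.75 ± 0.20), the fusion receptor gene kirre (0.73 ± 0.19), fz2, a receptor of Wingless (0.59 ± 0.11), chrb (0.48 ± 0.10), the E-cadherin gene shg (0.48 ± 0.13) and CG6770 (0.33 ± 0.06).

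Of the genes that fell in every library, the 10 with the largest changes were led by beat-IIb, a gene of the beaten path family of immunoglobulin proteins, at 21.1 CPM with and 114 CPM without an Ama UMI (-2.32 ± 0.30, adjusted p = 1.2e-08, edgeR's quasi-likelihood test). The Wingless antagonist gene nkd (-1.22 ± 0.13), CG10249 (-1.08 ± 0.27), the repressor gene h (-0.74 ± 0.20), vg (-0.63 ± 0.10) and zfh1 (-0.37 ± 0.08) followed. The smallest were the RNA-binding protein gene Imp (-0.34 ± 0.07), the non-coding RNA Hsromega (-0.29 ± 0.08), sqd (-0.22 ± 0.06) and Bacc (-0.21 ± 0.06).

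Of the 9 other DFM genes of the study, 8 were tested and 6 were higher, with a median log2 difference of 0.78 against -0.02 over all genes. Besides mid, Ten-a and kirre these were Argk (1.18 ± 0.12), the laminin gene wb (0.83 ± 0.16) and Alk (0.73 ± 0.20). Of the 4 IFM genes, 3 were lower (vg, zfh1 and nkd), with a median of -0.50. Over all 2053 genes compared, 30 were higher and 23 lower. The study chose both lists on these samples, so they are no independent evidence of the direction. None of 7 tested Abl pathway genes was called (median -0.01). Nrt differed by 0.24 ± 0.12 (95% interval 0.0048 to 0.48) and was not called (adjusted p = 0.45).

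**Figure D5:**
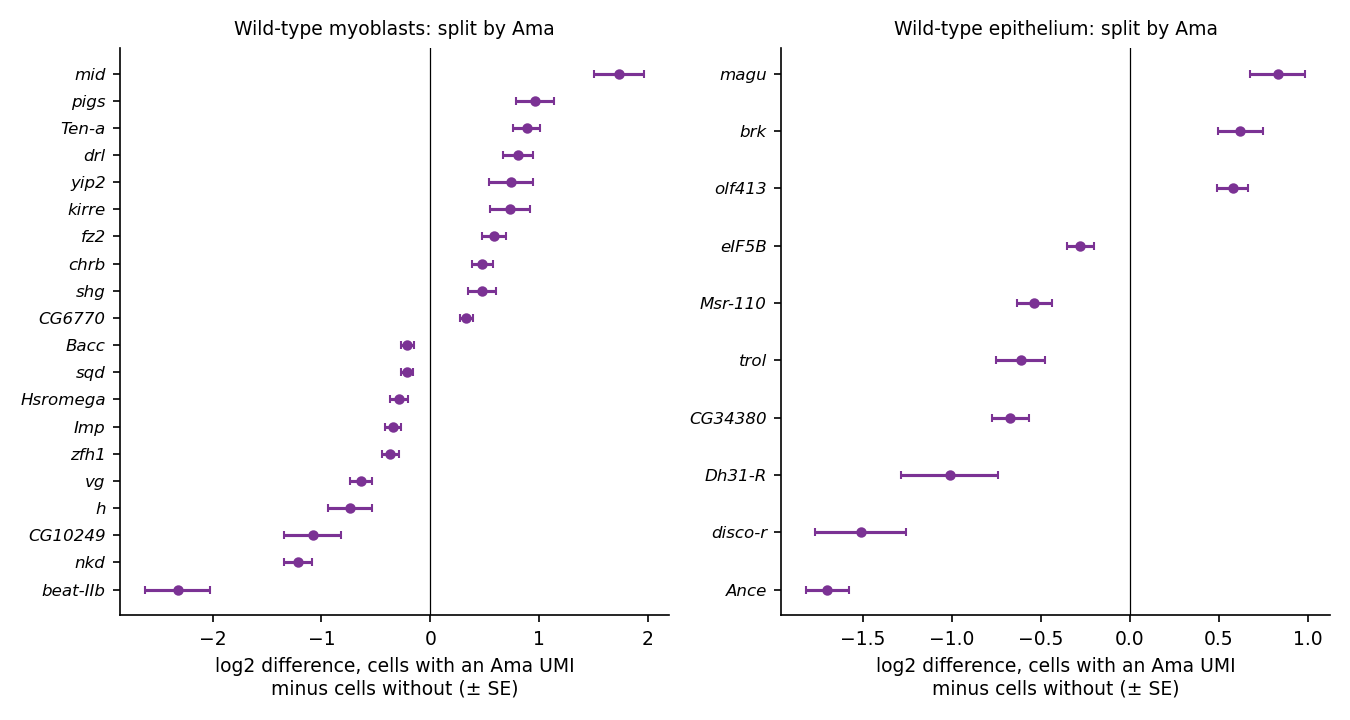
Log2 differences ± SE (horizontal axis, edgeR's quasi-likelihood fit) between cells with and without an Ama UMI for the genes called with 1 direction in all libraries used, in wild-type myoblasts (left) and wild-type epithelium (right). In myoblasts mid (1.74) and beat-IIb (-2.32) mark the ends, and in epithelium magu (0.83) and Ance (-1.70).

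The same split by Nrt gave little. Between 1157 myoblasts with a Nrt UMI and 3977 without, 5 of 1582 genes were called by edgeR's quasi-likelihood test, 0.316%. They were Argk (0.55 ± 0.09), edl (0.42 ± 0.09), Adar (0.83 ± 0.16), roX1 (-0.28 ± 0.07) and mt:lrRNA (-0.16 ± 0.03), of which only mt:lrRNA moved one way in every library. The others are named after their values were seen. The count was 3 without 1151-GAL4 replicate 4, 8 without 1151>mCherry-RNAi replicate 5 or 8, and 3 in DESeq2. Without the library block edgeR called 0, with 10 genes at an unadjusted p below 0.05 against 128 with the block. Ama differed by 0.10 ± 0.13 (95% interval -0.17 to 0.36, adjusted p = 0.89).

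The same split was made in the epithelium. Of 4387 other genes, 46 were called between 911 cells with an Ama UMI and 9181 without, 1.05% by edgeR's quasi-likelihood test, 18 higher and 28 lower. None belonged to the DFM or IFM lists, of which 6 and 4 genes were tested with medians of 0.05 and 0.02. The genes called in both classes were 3, fj, CG1890 and CG34380, named after their values were seen, with positive fitted differences in myoblasts and negative ones in epithelium. The libraries did not all share these directions, and CG1890 was higher in only 3 of 7 libraries in myoblasts and in 4 of 8 in epithelium. Those higher in every library were magu, which encodes a secreted regulator of Dpp signalling (0.83 ± 0.15), brk, the repressor of Dpp target genes (0.62 ± 0.13), and olf413 (0.58 ± 0.09). Those lower in every library were Ance, an angiotensin-converting enzyme gene (-1.70 ± 0.12), disco-r (-1.51 ± 0.26), Dh31-R (-1.01 ± 0.27), CG34380 (-0.67 ± 0.10), trol (-0.61 ± 0.14), Msr-110 (-0.54 ± 0.10) and eIF5B (-0.28 ± 0.07).

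Chosen after their values were seen, the Dpp receptor gene tkv was higher (0.47 ± 0.10), and dpp itself (-0.90 ± 0.17), its target bi (-0.94 ± 0.08) and the inhibitor gene Dad (-0.59 ± 0.12) were lower, each in most but not all libraries. Epithelial cells with an Ama UMI were far deeper, with a median of 1914 UMIs against 833. With cells thinned to 400 UMIs 12 genes were called, 7 of them among the 46, and 35 of 40 that could be fitted kept their direction. DESeq2 called 15, and edgeR without the library block 0, with 90 genes at an unadjusted p below 0.05 against 321 with it. Without 1151-GAL4 replicate 4 the count was 25. Nrt differed by 0.22 ± 0.15 in this split (adjusted p = 0.83).

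Split by Nrt, the epithelium had 9 of 4530 other genes called, 0.199% by edgeR's quasi-likelihood test, and 5 without 1151-GAL4 replicate 4. Those lower in every library were Obp99a (-2.40 ± 0.36) and eyg (-0.71 ± 0.12). Ama differed by 0.30 ± 0.14 (adjusted p = 0.998). CG1399, Phk-3 and zfh2 stood with tkv and brk among the highest correlations with Ama across epithelial cells, at 0.08 to 0.09, and Ance (-0.05) and bi (-0.04) at the lowest.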

How the data were processed

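Single-cell RNA of wing discs was measured by Drop-seq in 11 libraries. The authors aligned reads with STAR to BDGP6 and deposited, per library, the UMI counts of each gene and barcode, not normalised. The labels also name FastQC. Whether counting used strand is not given in the sources used here. Ama and Nrt and all gene lists were chosen with earlier results of these data known.

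Barcodes with 200 to 2500 genes were kept, and no doublet caller was run. UMIs were summed per library and class, with at least 10 cells in each sum. Sums were tested with edgeR 4.0.16 (quasi-likelihood test, TMM, its filter on low counts) in R 4.3.3, with the library as a block where classes were compared. P-values were Benjamini-Hochberg adjusted over all genes tested, with a threshold of 0.05. Other analyses used Python 3.11.15, numpy 2.4.6, scipy 1.17.1 and pandas 2.3.3. Libraries held 1335977 to 10548893 UMIs, which with few cells sets the precision. The code was tested on simulated data.

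Alternatives were DESeq2 1.42.0, no filter on low counts, the study's stress filters, class limits of 3 UMIs and 3 times, no library block, single control lines, thinning and leaving out each library. Fits without a minimum of cells or by Him, and the splits of epithelium, were added after seeing the data. Genes named were Ama, Nrt, called list members, the 10 largest changes in each direction in the splits among genes with 1 direction in all libraries, and the 10 highest and 5 lowest correlations.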

Additional observations from a re-analysis of the deposited data

Results flagged for a closer look

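Ama in myoblasts of 1151>mCherry-RNAi replicate 5 stood at 36.3 CPM, far from the other libraries of that line at 149 to 166 CPM. Nrt in myoblasts of 1151-GAL4 replicate 4 stood at 383 CPM, above the other libraries of that line at 301 to 315 CPM. In all, 26 groups of 4 libraries were examined, and chance marks about 1 in 20 groups, or 1.3 of them. The change of Nrt under 1151>Ama-RNAi differed between the myoblast class and epithelium by -1.94 on the log2 scale (adjusted p = 0.030, edgeR's quasi-likelihood test), resting on 6 Nrt UMIs in that class.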

How the results depend on the processing

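Higher Ama and Nrt in myoblasts than in epithelium kept direction and call in all alternatives run (Ama 0.98 to 1.21, Nrt 2.39 to 2.60). The cause of the following changes was not tested. Under stricter class limits, Nrt in tracheal cells against epithelium was -0.29, Ama in the myoblast class under 1151>Ama-RNAi -0.29, the difference of changes between classes -0.018 for Ama and -2.02 for Nrt (adjusted p = 0.31), Nrt between lines in myoblasts -0.68 (adjusted p = 0.035), Ama in the split by Nrt -0.014, and co-detection -0.15. Without the filter on low counts, the difference of changes for Nrt was -1.82 (adjusted p = 0.17), Nrt between lines -0.81 in myoblasts (adjusted p = 0.041) and -0.029 in epithelium, Nrt in Him-negative cells -0.57 (adjusted p = 0.028), and Ama in the split by Nrt -0.036. In DESeq2 the difference of changes for Nrt was -1.50, and Nrt in DFM-type against vg-positive cells was 0.52, against 0.53 without the library block. Under the stress filters Nrt between lines was -0.64 (adjusted p = 0.048).

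Against 1151-GAL4 alone, Nrt in the myoblast class was -2.02 (adjusted p = 0.016), Ama in epithelium 0.023, and the difference of changes for Ama -0.0039. Against 1151>mCherry-RNAi alone the difference of changes for Nrt was -1.26. In Him-positive barcodes the fitted value of Ama was -9.02, which depends on the prior count since Ama was at 0 there, and is no bound. Thinning gave -0.12 for Nrt in the epithelial split by Ama and -0.59 for co-detection.

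Genes called in the myoblast split by Ama numbered 22 in DESeq2, 148 without the filter, 4 without the block and 22 after thinning. For Nrt they numbered 3, 59, 0 and 1, with 8 under the stress filters, 9 under stricter limits and 15 for at least 2 Nrt UMIs. In epithelium they numbered 15, 102, 0 and 12 for Ama and 1, 23, 0 and 2 for Nrt. Between vg-positive cells with and without E(spl) UMIs, 23 were called without the filter and 2 without the block. Under 1151>Ama-RNAi, genes called in the myoblast class numbered 24 in DESeq2, 34 without the filter, 2 under stricter limits, 143 against 1151-GAL4 alone, 91 with the replicate block, 2 with at least 20 myoblasts and 6 in Him-positive barcodes. In epithelium they numbered 17 without the filter, 8 against 1151>mCherry-RNAi alone, 93 against 1151-GAL4 alone and 15 with the replicate block.

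Leaving out 1 library gave 2 to 14 called genes in the myoblast class and 2 to 5 in epithelium under 1151>Ama-RNAi. It gave -0.17 to 0.037 for Ama and -0.22 to 0.11 for Nrt in epithelium under 1151>Ama-RNAi, -2.03 to -1.75 for the difference of changes for Nrt, and 0.52 to 0.69 for Nrt in DFM-type cells. Nrt between lines ran from -0.71 to -0.51 in myoblasts and from -0.034 to 0.17 in epithelium, and Ama in the myoblast split by Nrt from -0.026 to 0.16. The myoblast split called 23 to 61 genes for Ama and 3 to 8 for Nrt, and the epithelial split 25 to 53 for Ama and 5 to 12 for Nrt. Leaving out a library was not run for tracheal cells, since 1 library would remain. With the replicate number as a block, Ama was 0.80 and Nrt -1.91 (adjusted p = 0.11) in the myoblast class, and 0.14 and -0.02 in epithelium. Epithelial deviations from the group mean correlated at 0.084, -0.082 and -0.19 between libraries of the same number. Between libraries of unlike number they correlated at -0.21 to 0.31. The labels do not say whether libraries of the same number were prepared together. The myoblast class of 1151>Ama-RNAi holds 53 barcodes and its tracheal class 11, which limits values there.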
